A study of Mus musculus with 16 samples.

Results

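The 10 genes described here encode the peptide hormone cholecystokinin (CCK) and parts of the receptor machinery that makes pancreatic exocrine cells secrete. They were taken by gene symbol from the deposited tables, and all 10 of the 10 symbols were found among the 24411 gene symbols of the count table. *Cck* encodes the hormone. *Cckar* and *Cckbr* encode its 2 receptors, *Chrm1* and *Chrm3* encode muscarinic acetylcholine receptors, and *Sctr* and *Vipr1* encode receptors for secretin and for vasoactive intestinal peptide (VIP). *Gnaq* and *Gna14* encode alpha subunits of the Gq family of G proteins, and *Itpr3* encodes a receptor for inositol trisphosphate that releases calcium from the endoplasmic reticulum.

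In the healthy body, CCK is made mainly by endocrine cells of the small intestine and by neurons, and it is released after a meal. CCK and acetylcholine act on acinar cells through Gq, phospholipase C, inositol trisphosphate and calcium, which sets off fusion of zymogen granules with the cell surface. Secretin and VIP act through Gs and cyclic AMP, and secretin is best known for driving bicarbonate and fluid secretion by duct cells. The study concerns CCK made by islet beta cells in obesity and its effect on neighbouring exocrine cells, so that both the hormone and the genes that receive it are of interest in whole pancreas.

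Bulk RNA-seq was done on polyA RNA of whole pancreas from 16 male C57BL6/J mice, each 1 library, all 12 weeks old and on chow. The WT group (5 mice) was lean and given control water. The Lep(ob/ob) group (7 mice) lacks functional leptin in every tissue and also had control water. The CCKRi group (4 mice) was Lep(ob/ob) mice that had a CCK receptor antagonist in the water for 6 weeks from 6 weeks of age, which was proglumide (0.1 mg/ml) for 2 of them and lorglumide (0.05 mg/ml) for the other 2. Proglumide blocks both CCK receptors and lorglumide, an analog of it, acts mainly on the receptor encoded by *Cckar*. WT mice weighed 27.7 ± 3.22 g (SD, n = 5). Untreated Lep(ob/ob) mice weighed 51.0 ± 1.98 g (SD, n = 7), and those of the CCKRi group 54.8 ± 2.22 g (SD, n = 4). The labels give each library 1 of 2 batches, called A and B here. The first holds 4 Lep(ob/ob) and 3 WT mice. The other holds all 4 CCKRi mice beside 3 Lep(ob/ob) and 2 WT mice. The sources differ on where the WT mice came from, since the sample labels give them as bred in house and the methods as purchased, while both give the Lep(ob/ob) mice as purchased. If the labels are right, genotype and colony cannot be told apart.

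Between 9.87 and 34.5 M reads were counted on genes per mouse, with 19.2 to 34.5 M in batch A and 9.87 to 15.9 M in batch B. The acinar marker *Cpa1* (carboxypeptidase A1) was at 133948 to 1675950 normalized counts and the beta cell marker *Ins2* (insulin) at 8549 to 117761, so that both compartments of the labelled tissue were present in every library. *Lep* itself ranged over 17.5 to 64.7 normalized counts in the WT group, over 254 to 8655 in the Lep(ob/ob) group and over 933 to 8797 with CCKRi, and since the ob allele leaves a transcript this does not check the genotype label. Libraries differed in fat: summed adipocyte markers ran from 1649 to 29749 normalized counts in Lep(ob/ob) mice and from 1512 to 4394 in WT mice. Normalized counts here are the authors' values, scaled by 1 size factor for each mouse and not logged. Fold changes come from the raw counts in a model of group and batch (edgeR quasi-likelihood test), are on the log2 scale with their standard error (SE), and are adjusted over all genes tested by the Benjamini-Hochberg method, where a gene is called at an adjusted p under 0.05.

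The promoters of the members with higher counts in Lep(ob/ob) than WT mice were read to show what sequence lies next to their start sites. The RefSeq promoter table (GRCm38.p6) held 7 of the 10 genes and had no entry matched for *Cckar*, *Chrm1* (also called higher) and *Sctr*. The 250 bases before the annotated start are printed 5′ to 3′ on the gene's own strand for *Cck* (chr9:121495695-121495944, minus strand), *Vipr1* (chr9:121642466-121642715, plus strand) and *Itpr3* (chr17:27057054-27057303, plus strand). Capitals mark the short core of the cyclic AMP response element (CGTCA on either strand), which occurs once in *Cck* and once in *Vipr1*.
Cck: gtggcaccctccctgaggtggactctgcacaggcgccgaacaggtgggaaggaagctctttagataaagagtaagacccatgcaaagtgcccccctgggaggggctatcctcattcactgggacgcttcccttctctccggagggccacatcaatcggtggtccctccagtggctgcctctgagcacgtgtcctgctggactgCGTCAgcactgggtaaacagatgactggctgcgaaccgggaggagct
Vipr1: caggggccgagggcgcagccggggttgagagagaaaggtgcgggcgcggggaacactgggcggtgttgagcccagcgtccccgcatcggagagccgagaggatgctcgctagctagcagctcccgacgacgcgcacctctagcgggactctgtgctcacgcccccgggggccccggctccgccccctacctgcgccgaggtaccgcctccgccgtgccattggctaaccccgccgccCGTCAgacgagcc
Itpr3: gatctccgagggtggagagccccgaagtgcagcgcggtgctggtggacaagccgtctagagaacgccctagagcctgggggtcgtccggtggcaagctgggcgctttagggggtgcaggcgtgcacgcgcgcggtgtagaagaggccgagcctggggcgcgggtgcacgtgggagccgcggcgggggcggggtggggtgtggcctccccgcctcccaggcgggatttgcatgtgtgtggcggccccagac
The core lies 47 to 43 bases before the start of *Cck* and 13 to 9 bases before the start of *Vipr1*, and 17.8% of 32851 promoters of this length hold one. The full element (TGACGTCA, 1.55% of promoters) and the AP-1 site (TGANTCA, 6.75%) were not found in the 250 bases of any of the 7 genes, nor was a TATA box (TATAAA, 12.4%). *Cck* held 3 E boxes (CANNTG, 66.2% of promoters) and *Vipr1* held 3 GC boxes (GGGCGG, 32.7%), one of which (18 to 13 bases before the start) shares a base with the core. These matches describe the letters in the window and nothing more.

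*Cck* and *Vipr1* are neighbours on chromosome 9 of GRCm38. *Cck* lies at 121489824 to 121495694 on the minus strand in 4 exonic blocks, and *Vipr1* at 121642716 to 121672954 on the plus strand in 14, with 147 kb and 1 protein-coding gene, *Lyzl4*, between them. *Gnaq* (19:16132831 to 16387463) and *Gna14* (19:16435762 to 16610820) lie in tandem on the plus strand of chromosome 19, 48.3 kb apart. No member overlaps another, and 4.32% of the 50-base stretches of *Chrm1* and 1.51% of those of *Itpr3* also occur in transcripts of an antisense gene.

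*Cckar* was by far the most abundant of the 10 transcripts per length. In WT mice its normalized count per kb of exon was 2182 ± 745 (SD, n = 5), 21.2 times that of *Gnaq*, which came next with 103 ± 24.0 (SD, n = 5). *Gna14* (63.9 ± 16.9 per kb), *Itpr3* (37.7 ± 10.8 per kb), *Vipr1* (34.8 ± 3.90 per kb) and *Chrm3* (27.9 ± 7.78 per kb) followed, each overlapping the gene next to it in this order. *Sctr* (8.58 ± 5.91 per kb), *Chrm1* (5.29 ± 1.73 per kb) and *Cckbr* (3.01 ± 0.91 per kb) were lowest among the genes with reads and also overlapped their neighbours, and *Cck* had no reads in WT. The ranges of *Cckar* and *Gnaq*, and those of *Chrm3* and *Sctr*, did not overlap in WT. In Lep(ob/ob) mice *Cckar* again led with 1450 ± 535 per kb (SD, n = 7), *Vipr1* came next after *Gnaq* with 65.6 ± 22.9 per kb (SD, n = 7), and *Cckbr* stood last with 0.72 ± 0.73 per kb (SD, n = 7). Of the summed level per kb of the 6 receptor genes, *Cckar* made up 96.0% ± 1.80 (SD, n = 5) in WT. Its share was 92.7% ± 1.46 (SD, n = 7) in the Lep(ob/ob) group and 90.7% ± 1.58 (SD, n = 4) with CCKRi. By batch, the WT and Lep(ob/ob) shares were apart in A (96.6% to 97.6% against 91.3% to 93.7%). In B they overlapped, where WT mice had 92.9% and 96.4%, Lep(ob/ob) mice 91.1% to 95.1% and CCKRi mice 89.6% to 93.0%.

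**Figure D1:**
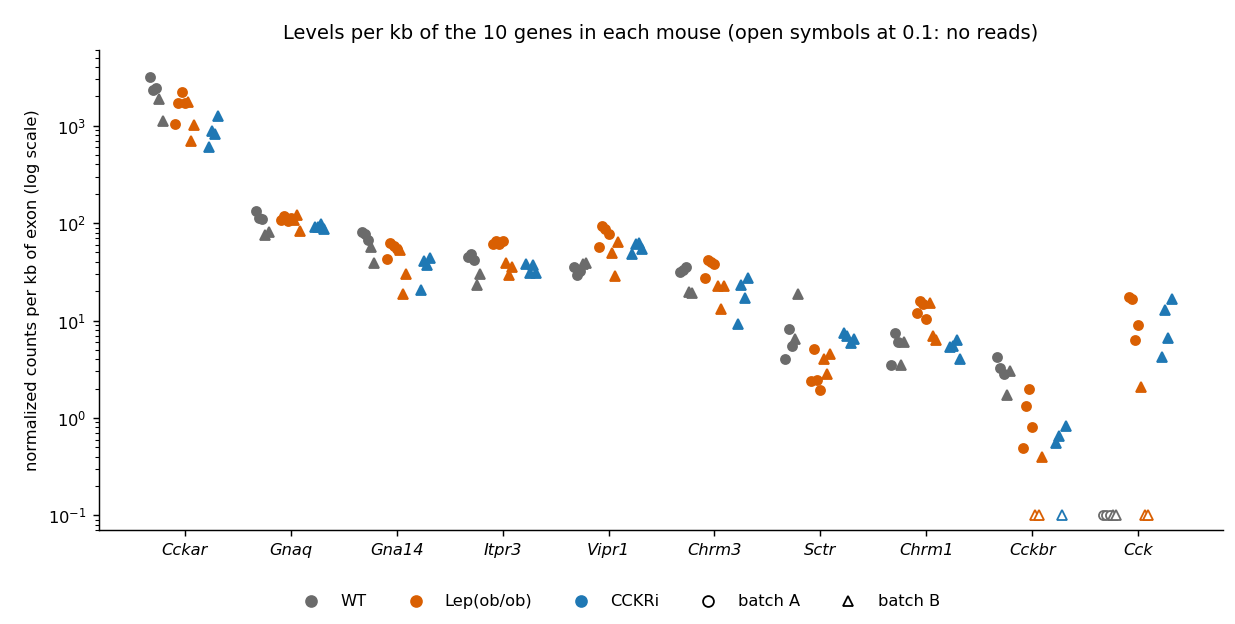
Normalized counts per kb of exon of the 10 genes in each mouse on a log axis, ordered by the WT mean, with circles for batch A, triangles for batch B and open symbols at the bottom for libraries with no reads. *Cckar* lies above every other gene in every mouse, and *Cck* has reads in Lep(ob/ob) and CCKRi mice but in no WT mouse.

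*Cck* itself had 0 reads in all 5 WT libraries and was detected in 5 of 7 Lep(ob/ob) and 4 of 4 CCKRi libraries. Its reads numbered 17, 15, 33 and 10 in the 4 Lep(ob/ob) mice of batch A and 2, 0 and 0 in the 3 of batch B. They numbered 7 and 18 in the proglumide mice and 8 and 18 in the lorglumide mice. The Lep(ob/ob) mice of batch A and the CCKRi mice were thus all above every WT mouse, while the Lep(ob/ob) mice of batch B overlapped WT.

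Pooled over libraries, *Cck* stood at 0.644 reads per 1000000 counted reads (RPM; 95% Poisson interval 0.506 to 0.807) in the 4 Lep(ob/ob) libraries of batch A. The 0 reads in WT mice of batch A allow up to 0.0392 RPM (3 reads over the pooled libraries), and the pooled Lep(ob/ob) value there was 16.4 times that limit. CCKRi mice had 1.13 RPM (0.8401 to 1.48), or 8.27 times the limit of 0.136 RPM in WT mice of batch B. Both multiples use the pooled value and not the lower end of its interval, so they are not strict lower bounds. The 2 reads found in the 3 Lep(ob/ob) libraries of batch B correspond to 0.0459 RPM (0.00555 to 0.166). The ratio of CCKRi to Lep(ob/ob) in batch B was 24.6, with a counting interval of 6.47 to 209 because it rests on these 2 reads, and these intervals cover counting error only. The scaling moves it: with size factors the means were 13.1 and 0.903 normalized counts, and the model over all mice gave a 15.0-fold difference (log2 3.91). That log2 value ran, when single mice were left out, from 3.13 (without Lep(ob/ob) mouse 463) to 5.99 (without Lep(ob/ob) mouse 461), and was 0.43 without the batch term. In the model over all mice *Cck* was called in Lep(ob/ob) against WT (adjusted p = 0.0056) and in CCKRi against WT (adjusted p = 0.000917), but it passed the filter on low counts only through the groups that had reads. It was not called in CCKRi against Lep(ob/ob) (adjusted p = 0.222). In whole tissue, fewer cells of a type and less RNA per cell cannot be told apart, and this holds for every gene below.

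Endocrine content also differed between these mice. The endocrine marker *Syp* (synaptophysin) had 109, 127, 106, 63.2 and 45.4 normalized counts in the WT mice, 657, 570, 564 and 516 in the Lep(ob/ob) mice of batch A and 268, 292 and 223 in those of batch B. CCKRi mice had 191 and 199 with proglumide and 302 and 569 with lorglumide. *Syp* was thus higher in every Lep(ob/ob) mouse than in any WT mouse, and lower in Lep(ob/ob) mice of batch B than in those of batch A. Per 1000 *Syp* reads, *Cck* had 15.8 to 40.6 reads in the Lep(ob/ob) mice of batch A, 10.1, 0 and 0 in the other 3, and 28.6 to 84.1 with CCKRi. Within batch B, CCKRi mice were above Lep(ob/ob) mice in this ratio (two-sided exact permutation p = 0.0286, the smallest 4 against 3 mice can give, 1 of 6 such tests around *Cck*, not adjusted), while *Syp* itself did not separate them (exact permutation p = 0.857). Both *Cck* and *Syp* were lower in Lep(ob/ob) mice of batch B than of batch A (exact permutation p = 0.0286 each), while for *Cck* per 1000 *Syp* reads the exact permutation p of this contrast was 0.0571. Among 12 islet markers, 9 were higher in Lep(ob/ob) than WT mice (median log2 fold change 2.24), with summed levels of 48217 to 241778 against 23648 to 34744 normalized counts. The part of islet content in the *Cck* result was not tested.

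Other cell types that make CCK were looked at by their markers. *Cdx1*, *Cdx2* and *Alpi*, which define intestinal epithelium, had 0 reads in every mouse. Of the 2 tested genes of that 9-gene list, *Vil1* (villin, also made in other epithelia) was higher in Lep(ob/ob) than WT mice (log2 fold change 2.88, SE 0.33, adjusted p = 8.08e-05, edgeR). Summed nerve and glia markers were 121 to 357 normalized counts in Lep(ob/ob), 146 to 640 in CCKRi and 76.5 to 128 in WT mice. In batch B alone they were 121 to 256 (mean 169) in Lep(ob/ob) mice, beside a mean of 427 in the CCKRi mice. *Snap25* (a synaptic protein also found in islets) was called higher in Lep(ob/ob) than WT mice. The part of these cell types in the *Cck* reads was not tested.

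**Figure D2:**
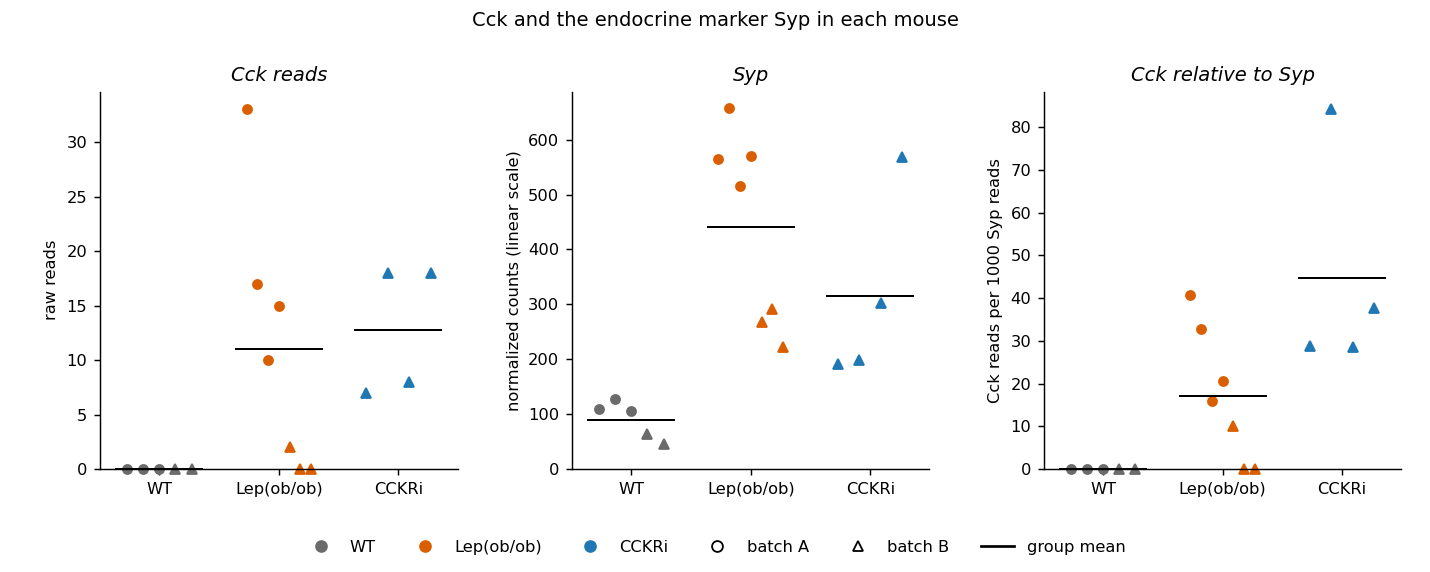
Raw *Cck* reads, *Syp* normalized counts and *Cck* reads per 1000 *Syp* reads in each mouse, with circles for batch A, triangles for batch B and lines for group means. All 5 WT mice are at 0 for *Cck*, the 3 Lep(ob/ob) mice of batch B have 2, 0 and 0 reads, and the 4 CCKRi mice of the same batch have 7 to 18.

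The genes whose log2 CPM (counts per 1000000 counted reads) ran most like *Cck* over the 16 mice were *Mapk10* (a JNK kinase; Pearson r = 0.927), *Kcnma1* (a calcium-activated potassium channel; r = 0.918), *Adgrb3* (r = 0.909), *6330403K07Rik* (r = 0.901) and *Unc13a* (a priming factor of vesicle release; r = 0.900). *Mapk10* averaged 22.2 normalized counts in WT, 69.7 in Lep(ob/ob) and 80.0 in CCKRi mice, and *Unc13a* 16.1, 67.1 and 97.2. For *Cckar* the nearest were *Angptl1* (r = 0.986), *Lypd6* (r = 0.977), *Hs3st3b1* (r = 0.974), *Tmem125* (r = 0.966) and *Tmem97* (r = 0.965). These are descriptions over 13651 genes in libraries that share batch, depth and cell makeup.

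Leaving out *Cck*, whose passing of the filter fixed its direction, 8 members could be tested between Lep(ob/ob) and WT mice. Of these, 4 were called, 3 higher and 1 lower, where 9.07% of all genes tested were called. *Chrm1*, *Vipr1* and *Itpr3* were higher and *Sctr* was lower, whereas *Cckar*, *Chrm3*, *Gnaq* and *Gna14* were not called. *Sctr* passed the filter only through WT and CCKRi mice, with 5 to 8 reads in each Lep(ob/ob) mouse. The filter thus favoured a lower value there, and the *Sctr* call and the count of 4 are not free of it. The members were also chosen with earlier results of these data known. The median log2 fold change of the 8 members was 0.07, beside -0.02 over all genes tested. No member separated all Lep(ob/ob) mice from all WT mice, which 4.19% of genes did. Depth differed by batch, so values or fold changes are also given by batch.

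**Figure D3:**
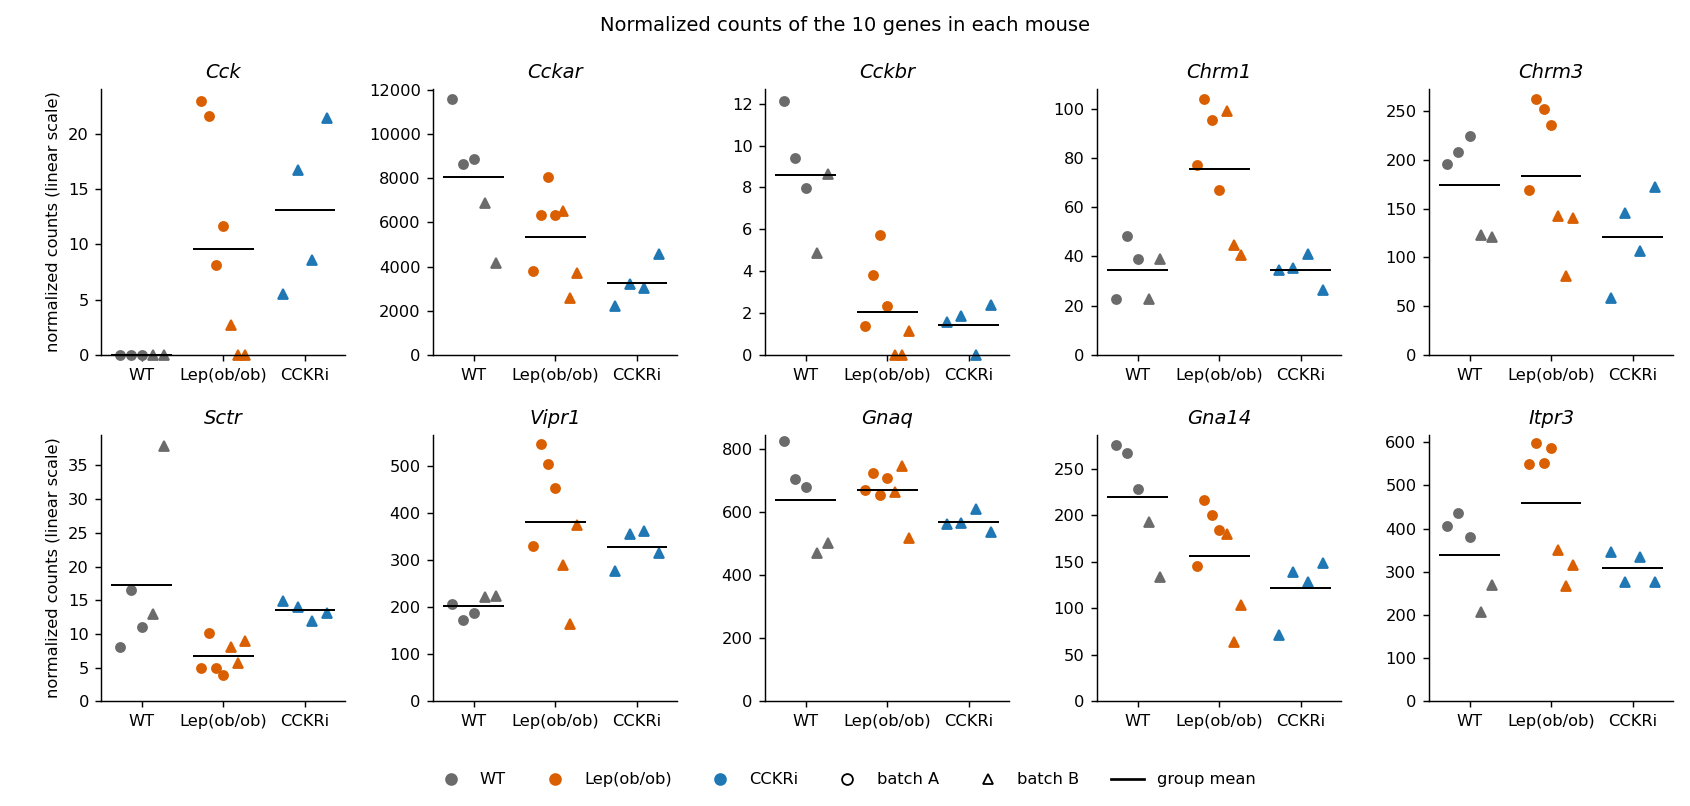
Normalized counts of each of the 10 genes in every mouse on linear axes that start at 0, with circles for batch A, triangles for batch B and lines for group means. *Chrm1* and *Vipr1* are higher and *Cckbr* lower in Lep(ob/ob) than in WT mice of batch A, and within WT and within Lep(ob/ob) the batch B mice lie below those of batch A for *Chrm3* and *Itpr3*.

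The CCK receptor of acinar cells, *Cckar* (5:53697776 to 53707705, minus strand, 5 exonic blocks), had 11586, 8661 and 8888 normalized counts in WT mice of batch A and 6876 and 4154 in those of batch B. In Lep(ob/ob) mice it had 6324, 6328, 3819 and 8074 in batch A and 6518, 2589 and 3721 in batch B. Every Lep(ob/ob) mouse of batch A was below every WT mouse of that batch, while the groups overlapped in batch B. The log2 fold change was -0.55 (SE 0.25, 95% interval -1.08 to -0.03) with an unadjusted p of 0.0390 and an adjusted p of 0.182 (edgeR), so it did not pass over all genes. Of 14 acinar markers 2 were called lower in the same comparison (*Ptf1a* and *Gatm*), with a list median of -0.22 on the log2 scale, and their part in the *Cckar* values was not tested.

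*Cckbr* (7:105425731 to 105470898, plus strand, 6 exonic blocks), the receptor that also binds gastrin, was close to the detection limit and did not pass the filter. WT mice had 9, 8, 8, 3 and 8 reads, Lep(ob/ob) mice 3, 3, 2 and 7 in batch A and 0, 0 and 1 in batch B. Every Lep(ob/ob) mouse had a lower normalized count than every WT mouse of its batch, with 1.39 to 5.71 against 7.99 to 12.1 in batch A and 0 to 1.13 against 4.87 and 8.65 in batch B. Pooled, it stood at 0.365 RPM (95% Poisson interval 0.256 to 0.505) in WT and 0.0999 RPM (0.0571 to 0.162) in Lep(ob/ob). The difference in log2(normalized count + 1) was -1.88 with mice permuted within batches (two-sided exact p = 0.00286, the smallest this design can give, 1 of 10 members tested in this way and not adjusted). *Chrm1* reached the same p (exact, two-sided). With no filter on low counts, where 6.66% of genes were called, *Cckbr* was called lower as well (log2 fold change -2.16, SE 0.60, adjusted p = 0.0336, edgeR).

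Among the muscarinic receptors, *Chrm1* (19:8663789 to 8683587, plus strand, 3 exonic blocks) was higher in Lep(ob/ob) mice and *Chrm3*, the main muscarinic receptor of acinar cells, was not called. *Chrm1* had 22.9, 48.2 and 38.97 normalized counts in WT mice of batch A and 22.7 and 38.9 in those of batch B. In Lep(ob/ob) mice it had 104, 67.0, 77.2 and 95.5 in batch A and 98.8, 44.5 and 40.6 in batch B. The groups did not overlap within either batch, although 1 WT mouse of batch A exceeded the lowest Lep(ob/ob) mice of batch B. The log2 fold change was 1.09 (SE 0.26, adjusted p = 0.0132, edgeR), a 2.13-fold rise, and it was 1.25 (SE 0.28) in batch A and 0.91 (SE 0.45) in batch B alone. *Chrm3* (13:9875486 to 10360847, minus strand, 6 exonic blocks) ran from 121 to 224 normalized counts in WT (median 195) and from 81.2 to 263 in Lep(ob/ob) (median 169). Its log2 fold change was 0.06 (SE 0.22, 95% interval -0.40 to 0.52, adjusted p = 0.900), with 0.17 (SE 0.15) in batch A and -0.05 (SE 0.42) in batch B alone, and its batch B mice were below its batch A mice in both groups.

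The receptors that signal through Gs moved in opposite directions. *Vipr1*, a receptor for VIP, rose 1.82-fold in Lep(ob/ob) mice (log2 fold change 0.86, SE 0.22, adjusted p = 0.0189, edgeR). It had 206, 172 and 187 normalized counts in WT mice of batch A against 547, 452, 330 and 504 in the Lep(ob/ob) mice of that batch. In batch B the WT mice had 222.2 and 224 and the Lep(ob/ob) mice 288, 165 and 375. The groups were apart in batch A and overlapped in batch B, where 1 Lep(ob/ob) mouse was below both WT mice. The log2 fold change was 1.33 (SE 0.16, adjusted p = 0.000731) in batch A alone and 0.27 (SE 0.32, adjusted p = 0.658) in batch B alone. This difference between batches had a log2 size of -1.03 (SE 0.39, unadjusted p = 0.0217) and did not pass over all genes (adjusted p = 0.398, edgeR). The call was lost without WT mouse 5489, 5492 or 5494, with adjusted p up to 0.0658.

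*Sctr* (1:120006894 to 120063536, plus strand, 14 exonic blocks), the secretin receptor, was lower in Lep(ob/ob) mice at low counts. WT mice had 8.08, 16.5 and 10.99 normalized counts in batch A and 12.97 and 37.8 in batch B. Lep(ob/ob) mice had 10.1, 3.89, 4.87 and 4.90 in batch A and 8.12, 5.65 and 9.01 in batch B, or 5 to 8 raw reads each. The groups overlapped in batch A through 1 Lep(ob/ob) mouse and were apart in batch B. The log2 fold change was -1.39 (SE 0.34, adjusted p = 0.0160, edgeR), 2.62-fold lower. Without the WT mouse with 37.8 it was -0.98 with an adjusted p of 0.0997, so the call rests on that mouse. *Sctr* passed the filter on low counts through WT and CCKRi mice only. With no filter and all mice the log2 fold change was -1.38 (SE 0.36, adjusted p = 0.0238, edgeR). Markers of duct cells, on which secretin is best known to act, had summed levels of 12373 to 38538 normalized counts in Lep(ob/ob) against 42053 to 49843 in WT, and their part in the *Sctr* result was not tested. The duct keratin *Krt7* went the other way from that sum (log2 fold change 1.03, SE 0.24, adjusted p = 0.0125, edgeR). Without the 4 libraries highest in adipocyte markers, a setting added after seeing the data, *Sctr* changed by -1.17 on the log2 scale (adjusted p = 0.0891).

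Of the shared signalling genes, *Itpr3* (17:27057304 to 27122223, plus strand, 58 exonic blocks) was called and the 2 G protein subunits were not. *Itpr3* had 407, 436 and 380 normalized counts in WT mice of batch A, where the Lep(ob/ob) mice had 598, 586, 550 and 551. In batch B it had 208 and 268 in WT and 349, 268 and 317 in Lep(ob/ob) mice, so the groups were apart in batch A, and in batch B the lowest Lep(ob/ob) mouse lay just under the highest WT mouse. The rise was 1.35-fold (log2 fold change 0.43, SE 0.11, adjusted p = 0.0168, edgeR), with 0.53 (SE 0.09) in batch A and 0.34 (SE 0.22) in batch B alone. The call was lost without WT mouse 5494 or 58 (adjusted p up to 0.0576) and without the batch term (adjusted p = 0.344). In batch A, *Gnaq* was at 680 to 826 normalized counts in WT and at 653 to 724 in Lep(ob/ob) mice, which overlapped. In batch B it was at 470 and 502 in WT and at 518 to 744 in Lep(ob/ob) mice, which did not. The log2 fold change was -0.05 (SE 0.09) in batch A and 0.36 (SE 0.19) in batch B alone, and 0.09 over both (SE 0.11, 95% interval -0.15 to 0.33, adjusted p = 0.693). The difference between batches had an unadjusted p of 0.0525 in edgeR (adjusted p = 0.420) and of 0.0432 in DESeq2. For *Gna14*, the batch A mice were apart, at 228 to 276 normalized counts in WT and at 146 to 217 in Lep(ob/ob) mice. In batch B it was at 134 and 193 in WT and at 63.6 to 180 in Lep(ob/ob) mice, which overlapped. Its log2 fold change was -0.42 (SE 0.14) in batch A and -0.54 (SE 0.43) in batch B alone, and -0.49 over both (SE 0.22, unadjusted p = 0.0403, adjusted p = 0.185). It was called lower without the 4 libraries highest in adipocyte markers (adjusted p = 0.0430).

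**Figure D4:**
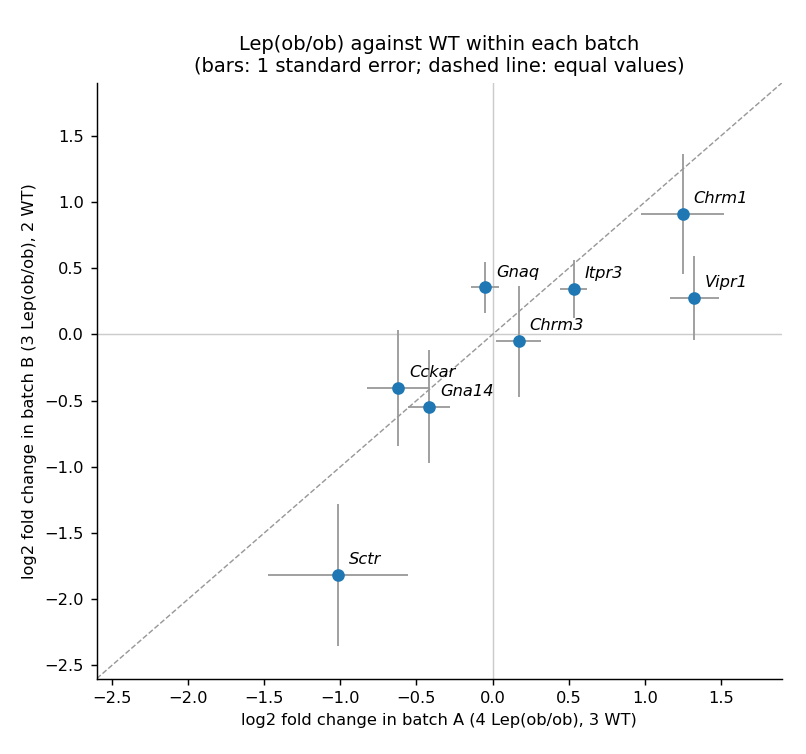
Log2 fold change of Lep(ob/ob) against WT in batch A (x axis) and in batch B (y axis) for 8 genes, each fitted on that batch alone, with bars of 1 standard error and a dashed line where both are equal. *Chrm1* (1.25 and 0.91) and *Sctr* (-1.01 and -1.82) lie on the same side of 0 in both, and *Vipr1* (1.33 and 0.27) lies farthest below the line among the genes that are positive in both.

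Whether the size of the genotype difference depended on the batch was tested for the 8 members with enough counts in the 12 untreated mice. No member was called (0 of 8), with 1 at an unadjusted p under 0.05 (*Vipr1*). Of all genes, edgeR called 0% of 13189 genes. DESeq2 on the same counts called 0 of the 7 members to which it gave an adjusted p (none for *Sctr*), and 2 had an unadjusted p below 0.05.

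CCK receptor antagonists served to ask whether blocking CCK receptors changes the obese pancreas. No member was called between CCKRi and Lep(ob/ob) mice (0 of 9 in edgeR, where 0.0586% of genes were called), with 2 at an unadjusted p under 0.05, and DESeq2 with batch called 0 of 7, with 2 of all 9 at an unadjusted p under 0.05. DESeq2 gave no adjusted p for *Sctr* or for *Cck*, whose unadjusted p was 0.000509. *Chrm1* had 34.6 and 35.4 normalized counts with proglumide and 40.96 and 26.2 with lorglumide, against 98.8, 44.5 and 40.6 in the Lep(ob/ob) mice of the same batch. Of the 4 CCKRi mice, 3 were below every Lep(ob/ob) mouse, and all 4 were within the WT range. Its log2 fold change was -0.85 (SE 0.31, 95% interval -1.50 to -0.20, unadjusted p = 0.0140, adjusted p = 0.280), and it was called only in the fits without a batch term (edgeR adjusted p = 0.0488), where all CCKRi mice are set against Lep(ob/ob) mice of both batches. With single mice left out the value ran from -1.04 to -0.53. The smallest change was without Lep(ob/ob) mouse 461, the one with 98.8 normalized counts (edgeR adjusted p = 0.682).

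*Sctr* had 14.9 and 14.0 normalized counts with proglumide and 11.9 and 13.1 with lorglumide, above all 7 Lep(ob/ob) mice (3.89 to 10.1). In batch B, *Sctr* and *Cck* were the 2 of 10 members whose CCKRi and Lep(ob/ob) values did not overlap, which 8.73% of genes did. Both genes passed the filter on low counts through mice other than the Lep(ob/ob) mice of batch B. The log2 fold change of *Sctr* in the model was 0.67 (SE 0.41, 95% interval -0.20 to 1.54, adjusted p = 0.454). *Cckar* was at 2239 and 3231 normalized counts with proglumide and 3049 and 4584 with lorglumide, within or below the 2589 to 6518 of Lep(ob/ob) mice in batch B, with a log2 fold change of -0.30 (95% interval -0.93 to 0.34). The 14 acinar markers had a list median of -0.43 on the log2 scale, with 0 called, and their part was not tested. *Cckbr* had 2 and 2 reads with proglumide and 0 and 2 with lorglumide, or 0.133 RPM pooled (95% Poisson interval 0.0487 to 0.289).

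The intervals of the remaining members come from the model over all mice, whose batch term rests on WT and Lep(ob/ob) mice. *Vipr1* was at 276 and 356 normalized counts with proglumide and 362 and 316 with lorglumide, a log2 fold change of 0.02 (95% interval -0.53 to 0.58). For *Itpr3* the log2 fold change was -0.01 (-0.28 to 0.26), and for *Gnaq* it was -0.04 (-0.33 to 0.25). *Chrm3* gave -0.03 (-0.59 to 0.54) and *Gna14* 0.09 (-0.49 to 0.68). Fitted on batch B alone, which holds all CCKRi mice, the intervals were wider. *Vipr1* then had 0.30 (-0.29 to 0.88), *Itpr3* 0.04 (-0.36 to 0.44) and *Gnaq* -0.11 (-0.47 to 0.24). *Chrm3* had 0.04 (-0.73 to 0.81) and *Gna14* 0.14 (-0.67 to 0.94). Changes inside these wider intervals could have been missed. Doses of the 2 antagonists differed, with 2 mice each, so their values stand side by side and were not compared.

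**Figure D5:**
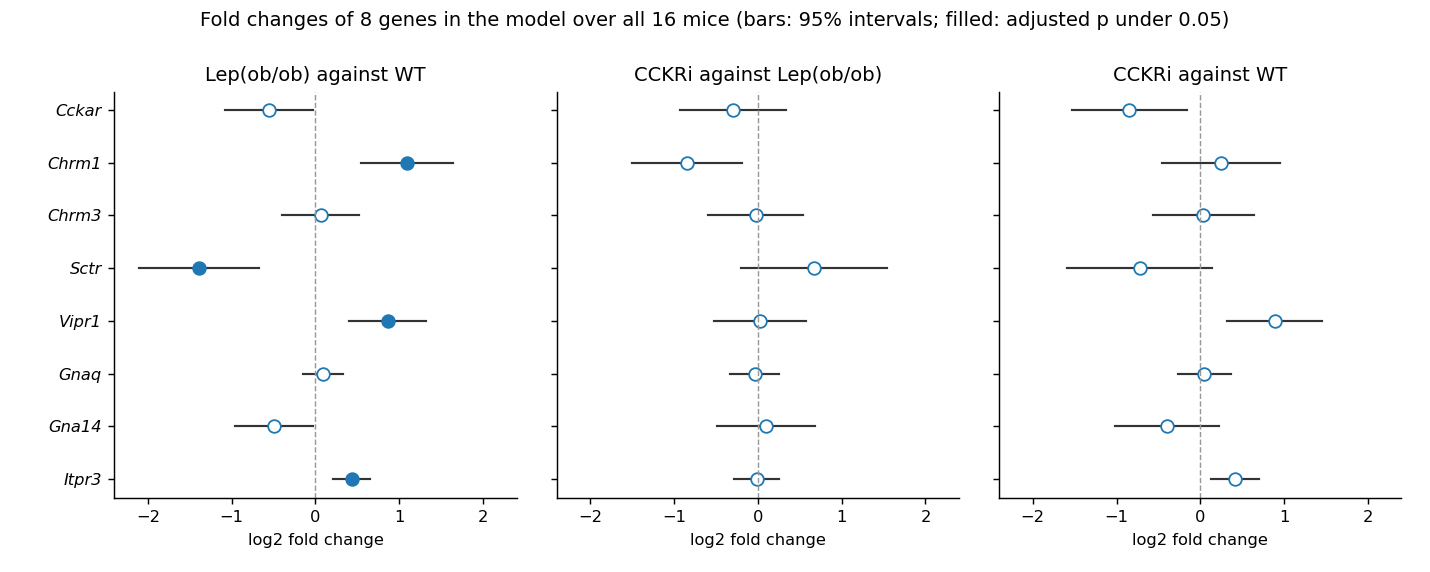
Log2 fold changes (x axis) of 8 genes (y axis) in the 3 comparisons of the model over all 16 mice, with 95% intervals and filled symbols for genes called at an adjusted p under 0.05. *Chrm1*, *Sctr*, *Vipr1* and *Itpr3* are filled in Lep(ob/ob) against WT, and none of the 8 is filled in the comparisons with CCKRi mice.

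Between CCKRi and WT mice edgeR called 0 of the 8 members other than *Cck*, with 3 at an unadjusted p under 0.05, where 5.57% of all genes were called. *Vipr1* had a log2 fold change of 0.89 (SE 0.27, adjusted p = 0.0648, edgeR) and was called by DESeq2 (adjusted p = 0.0382). In batch B alone, which holds all CCKRi mice, *Vipr1* had 0.57 (95% interval -0.11 to 1.25, adjusted p = 0.615, edgeR). In the model over all mice *Itpr3* had 0.42 (SE 0.14, adjusted p = 0.0935) and *Cckar* -0.85 (SE 0.32, adjusted p = 0.169). Of the 14 acinar markers 0 were called in this comparison, with a list median of -0.73 on the log2 scale. Their part in the *Cckar* values was not tested. *Chrm1*, higher in untreated Lep(ob/ob) mice, had a log2 fold change of 0.24 (95% interval -0.46 to 0.95) in CCKRi against WT. This comparison and the one of Lep(ob/ob) with WT share the WT mice.

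Genes around these receptors were counted in 7 lists of secretagogue signalling, with 130 genes, of which 108 were tested. Between Lep(ob/ob) and WT mice 11 were higher and 7 lower, 16.7% of those tested beside 9.07% of all genes. The lists were chosen with earlier results of these data known, so list shares above those of all genes, here and below, are no test. List medians of the log2 fold change lay between -0.36 and 0.27.

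Among 11 tested receptors for other secretagogues, 2 were higher and 2 lower. *Casr*, the calcium-sensing receptor, rose from 17.02 ± 9.25 (SD, n = 5) to 90.0 ± 57.7 (SD, n = 7) normalized counts, or by 2.33 on the log2 scale (SE 0.36, adjusted p = 0.000719). *P2ry1*, a Gq-coupled receptor for ADP, rose by 1.94 (SE 0.35, adjusted p = 0.0024). *Sstr2*, a somatostatin receptor, had a log2 fold change of -1.17 (SE 0.25, adjusted p = 0.00677), and *Vipr2*, the second VIP receptor, -0.68 (SE 0.17, adjusted p = 0.0160). *Vipr2* and *Vipr1* thus moved in opposite directions. Among 3 tested ligands 1 was lower, the neuropeptide galanin (*Gal*), which had 2157 ± 549 normalized counts in WT (SD, n = 5) and 330 ± 156 in Lep(ob/ob) mice (SD, n = 7), with -2.80 as its log2 fold change (SE 0.25, adjusted p = 2.38e-05).

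Downstream of Gq, 3 of 26 tested genes of calcium release were called. *Atp2a3*, an endoplasmic reticulum calcium pump, had a log2 fold change of 1.58 (SE 0.30, adjusted p = 0.00351), *Prkcb* (a protein kinase C) 1.15 (SE 0.21) and *Plcb4* (a phospholipase C) -0.56 (SE 0.11). Of 17 tested genes of Gq feedback and calcineurin, 2 were higher, *Rgs16* (2.75, SE 0.30) and *Rgs2* (1.46, SE 0.31), which speed the switching off of G protein alpha subunits.

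In the list of Gs and cyclic AMP, 3 of 21 tested genes were higher and 1 was lower. The subunits of protein kinase A *Prkar2b*, *Prkar1b* and *Prkacb* had log2 fold changes of 2.81 (SE 0.68), 1.26 (SE 0.31) and 0.76 (SE 0.20), and the phosphodiesterase *Pde4a* -0.81 (SE 0.16). Of 18 tested genes of zymogen granule exocytosis, *Cplx2* (complexin) was higher (1.60, SE 0.33) and *Rab27b* lower (-0.82, SE 0.18). Of 12 tested genes of duct fluid secretion, *Kcnma1* was higher (1.69, SE 0.28) and the chloride cotransporter *Slc12a2* lower (-0.52, SE 0.13). Islet markers were higher in the same mice, as given above, and their part in these values was not tested.

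Between CCKRi and Lep(ob/ob) mice 0 of the 108 were called by edgeR. An unadjusted p under 0.05 was found for 12 of them, beside 1951 of all 13660 genes (edgeR). DESeq2 called 1 (*Orai1*, a subunit of the store-operated calcium channel), where with the batch term it called 104 of all 13660 genes. Against WT mice, CCKRi mice had 10 higher and 7 lower, 15.7% of those tested beside 5.57% of all genes. *Rgs16* (3.22, SE 0.37), *Rgs2* (1.82, SE 0.38), *Casr* (3.03, SE 0.46) and *P2ry1* (2.54, SE 0.44) were called higher, and *Gal* (-3.30, SE 0.34), *Sstr2* (-1.65, SE 0.34) and *Orai1* (-1.26, SE 0.25) lower.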

How the data were processed

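Whole pancreas RNA of 16 mice was sequenced, 1 library per mouse. Per the labels and the methods, the authors used Trim Galore 0.6.7 with cutadapt 3.5 for trimming and STAR 2.7.9 for alignment to mm10, and deposited the raw count of reads per gene symbol (24411 symbols), from stranded libraries. The read counter, its strand setting and the annotation are not given in the sources used here. The authors also deposited a normalized signal for 17548 symbols, the count divided by 1 size factor per mouse. Raw counts were tested in R 4.3.3 with edgeR 4.0.16 (TMM, filterByExpr, 13660 genes, 3 groups and batch in 1 quasi-likelihood model, Benjamini-Hochberg adjustment). DESeq2 1.42.0 served as an alternative. Log2 CPM used a prior count of 2. Exact permutation tests, two-sided, enumerated every arrangement in Python 3.11.15. Single genes were tested on log2(normalized count + 1), and ratios of 2 members on the log2 scale. *Cck* per 1000 *Syp* reads was tested unlogged. The models were tested on simulated data. For Lep(ob/ob) against WT 63% of 2-fold and 95% of 4-fold changes were recovered, and for CCKRi against Lep(ob/ob) 50% and 87%. The simulated counts held no batch effect and covered genes of all levels. These rates thus need not hold for members with few reads or for groups of unequal batch. Each mouse is 1 biological replicate. The closest pair of libraries differed by a chi-square of 8.57 per gene over 120 pairs, so every library was counted as its own sample. Depth is 9.87 to 34.5 M counts per mouse. The Poisson intervals of pooled reads and the counting interval of their ratio cover counting error only. Gene positions are from GENCODE M21 on GRCm38 and promoters from RefSeq. The members and lists were chosen with earlier results of these data known. Named are all members, up to 4 called genes per list and comparison with the largest fold change, and the 5 genes most correlated with *Cck* and with *Cckar*. The alternatives were another tool, scaling, filter, set of mice or batch, and each mouse left out. Not every duct marker is reported singly here.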

Additional observations from a re-analysis of the deposited data

Results flagged for a closer look

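*Gnaq* was lowest in Lep(ob/ob) mouse 464 of batch B, at 518 normalized counts (460 reads), where the other 6 Lep(ob/ob) mice had 653 to 744. The gap to the nearest mouse was 0.6385 of the range of the group on the log2 scale, past the limit of Dixon's test for 7 mice. It was the 1 result past that limit among 29 groups of values, and chance alone passes about 1 in 20.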

How the results depend on the processing

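The 27 fold changes of members were refitted under 595 alternatives in all, of which 572 kept their direction where called and their side of the threshold, 16 lost a call, 7 gained one and 0 reversed. Counts against WT include *Cck*, which had 0 WT reads and passed the filter only through the other groups, so that its calls say nothing of stability. *Sctr* passed the filter of the main fit through WT and CCKRi mice only. Between Lep(ob/ob) and WT mice 5 members were called. There were 3 with at least 10 counts in every mouse, 3 with a log2 fold change of at least 1, 0 in batch B alone (1 at an unadjusted p under 0.05, edgeR), and 3 to 5 with each mouse left out. *Chrm1* kept its call in each of these fits except batch B alone. Between CCKRi and Lep(ob/ob) mice 0 were called, also with each mouse left out, and 1 (*Chrm1*) without the batch term in edgeR and in DESeq2. Between CCKRi and WT mice 1 was called (*Cck*), also with each mouse left out. There were 2 without the batch term in edgeR and in DESeq2 (*Cck* and *Cckar*), 2 in DESeq2 with batch and 2 without the 4 libraries highest in adipocyte markers (*Cck* and *Vipr1*), and 0 with at least 10 counts in every mouse, in batch B alone and with only these groups fitted. With 10 counts in every mouse *Cck* and *Sctr* were not tested, *Cck* was not tested either where WT and 1 other group were fitted alone, and the cause of the other changes was not tested. Over all genes, CCKRi against Lep(ob/ob) gave 8 calls, 104 in DESeq2 with batch, 2518 in DESeq2 and 570 in edgeR without it, 5 when scaling ignored the 50 most counted genes, 3 with only these groups, 2 in batch B alone and 0 for each drug alone. With single mice left out the count ran from 0 (without CCKRi mouse 72 or 74) to 9 (without Lep(ob/ob) mouse 464). CCKRi against WT gave 761 calls, 2320 in DESeq2 and 1428 in edgeR without batch, 438 with at least 10 counts in every mouse, 284 for proglumide alone, 13 in batch B, between the last 2 of these with only these groups fitted, and 1316 without the adipocyte-high libraries. Lep(ob/ob) against WT gave 1239, 798 without batch in edgeR, 782 with at least 10 counts and 8 in batch B. Genotype by batch gave 0 in edgeR and 54 in DESeq2. Few reads limit *Cck*, *Cckbr* and *Sctr*. No paired analysis was possible because groups have no mouse number in common.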

Other observations

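Levels of 2 members in the same mouse, as normalized counts per kb of exon, can be set against each other, which removes the size factor. The level per kb of *Vipr1* was 0.0184 ± 0.00954 times that of *Cckar* (SD, n = 5) in WT. The value was 0.0468 ± 0.0121 (SD, n = 7) for the Lep(ob/ob) group and 0.0668 ± 0.0158 (SD, n = 4) with CCKRi. All CCKRi mice are of batch B, and within it the CCKRi and Lep(ob/ob) mice did not differ past the threshold in this ratio (exact two-sided permutation p = 0.171) or in that of *Vipr1* to *Sctr* (exact p = 0.0857). *Vipr1* was at 5.27 ± 2.58 times the level per kb of *Sctr* in WT (SD, n = 5) and at 22.2 ± 11.8 times in Lep(ob/ob) (SD, n = 7), and every Lep(ob/ob) mouse (10.1 to 40.3) was above every WT mouse (2.05 to 8.85). CCKRi mice had 8.55 ± 1.72 (SD, n = 4). This ratio of *Vipr1* to *Sctr* sets a member called higher over a member called lower in the same mice, so it adds no further result. It rests on 5 to 8 *Sctr* reads in each Lep(ob/ob) mouse. The ratio of *Chrm1* to *Chrm3* levels per kb was 0.198 ± 0.0736 (SD, n = 5) in WT and 0.420 ± 0.142 (SD, n = 7) in Lep(ob/ob) mice, whose lowest value (0.274) lay below the highest WT value (0.310). The levels per kb of the tandem neighbours *Gnaq* and *Gna14* stood at a ratio of 1.64 ± 0.277 (SD, n = 5) in WT and 2.81 ± 1.67 (SD, n = 7) in Lep(ob/ob) mice, where the highest was 6.50. They are given as descriptions.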
